A study of Ovis aries with 30 samples.

Results

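The 10 genes described here make or assemble the proteins of plasma lipoproteins: APOA1, APOA2, APOA4, APOA5, APOB, APOC3, APOE, APOH, APOM and MTTP. They were taken by symbol from a table of 31304 gene rows, and all 10 had a row. The liver packs triglyceride and cholesterol ester around APOB in the endoplasmic reticulum, with the transfer protein MTTP, and secretes the particle as very low density lipoprotein (VLDL). Small exchangeable apolipoproteins then join or leave it in plasma and govern how fast its triglyceride is hydrolysed and its remnant taken up, while APOA1 and APOA2 build high density lipoprotein (HDL). The ruminant liver is known for slow export of VLDL.

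Liver RNA of 30 first-generation sheep lambs (Ovis aries) was sequenced, 1 library per lamb. The lambs' mothers met biosolids, which are treated sewage sludge used as a fertiliser, before conception and during pregnancy, or were controls. There were 7 biosolids males, 7 control males, 8 biosolids females and 8 control females. The samples are whole liver tissue, and the labels give neither the lambs' age nor their litters.

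The libraries held from 18.7 M to 51.9 M read counts each (M, mega). In the library of biosolids male 8778, ribosomal RNA rows took 87.5% of the counts and left 2.34 M for all other rows, against 0.299 to 7.69% ribosomal RNA in the other 29 libraries. Control female 8263 was least like the other lambs, with a median Spearman correlation of 0.943. Control male 8408 held 302 CPM (counts-per-million of the scaled library size) of LOC101112291, a transcript whose level was 318 to 824 CPM among the 16 female lambs and 2.05 CPM or less among the 13 remaining males. ALB, the hepatocyte product albumin, lay between 30010 and 72830 CPM. The pancreatic acinar markers summed to no more than 0.778 CPM in any lamb. Of the 6 intestinal markers, SI reached 0.0662 CPM, CDX1 0.199 CPM, FABP2 0.406 CPM, CDX2 3.18 CPM, VIL1 14.1 CPM and LGALS4 60.6 CPM at most. Biosolids female 8649 held the highest SI, CDX1, CDX2 and VIL1. The highest FABP2 was in biosolids male 8762 and the highest LGALS4 in control female 8353. CD68, a macrophage marker, was listed at 0 in every library, but other macrophage markers were present. C1QB ran from 216 to 768 CPM and CD14 from 95.2 to 299 CPM. The summed macrophage list had group medians from 902 to 978 CPM.

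Of the 10 genes, 9 had counts and 1 did not. APOA2 was listed at 0 in all 30 libraries. APOA2 lies on chromosome 1 from 112659164 to 112660421 (minus strand, assembly ARS-UI_Ramb_v3.0), and 476 of its 476 exon bases, 100%, also belong to exons of NR1I3, a nuclear receptor gene annotated on the same strand from 112659164 to 112671032. NR1I3 itself had between 22.1 and 80.0 CPM. The same layout was found for APOC2, the activator of lipoprotein lipase: all 1119 of its exon bases are shared with APOC4, and APOC2 was listed at 0 in every library while APOC4 had between 410 and 746 CPM. APOF, whose 1949 exon bases are all shared with STAT2, was likewise listed at 0.

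This held across the table. Of 415 genes with every exon base shared with another gene, 415 were listed at 0 in all 30 libraries. Among them, 127 shared their exons with genes of the opposite strand only, and all 127 were at 0 as well. Of 25329 genes with no shared exon base, 15.3% were at 0. The zeros of APOA2, APOC2 and APOF are therefore given as zeros of the table and not as levels. The other 9 genes share no exon base with another gene.

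Of these 9, 4 are neighbours on chromosome 15 of the same assembly. There, APOA5 runs from 27176642 to 27179972, APOA4 from 27213554 to 27216427 and APOA1 from 27236444 to 27238446 on the minus strand, and APOC3 from 27221654 to 27234272 on the plus strand. APOB lies on chromosome 3 from 28803233 to 28842836 (minus strand), and its 14132 exon bases are the most of the 9. MTTP lies on chromosome 6 from 25324646 to 25380955 (minus strand), and APOE on chromosome 14 from 52424882 to 52429892 (plus strand). APOH lies on chromosome 11 from 61795029 to 61807511 and APOM on chromosome 20 from 26723310 to 26727109, both on the minus strand.

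Per exon length, APOE was the most abundant of the 9 and MTTP the least. Medians over the 30 lambs, in CPM per kilobase of exon, were 4229 for APOE, 2487 for APOA1, 1779 for APOC3, 1304 for APOH and 768 for APOA5. They were 262 for APOB, 64.2 for APOA4, 55.4 for APOM and 33.9 for MTTP. By this measure APOE stood at rank 8 of the whole table, APOA1 at rank 18 and MTTP at rank 1246. APOE, the ligand by which remnants are taken up, was above APOA1 in 30 of 30 lambs, and APOA5 was above APOB in 30 of 30. APOA1 exceeded APOC3 in 24 of 30 lambs and APOC3 exceeded APOH in 24 of 30. APOA4 and APOM were not separated, with APOA4 the higher in 17 of 30 lambs. Together the members took between 2.11 and 2.96% of the counts outside ribosomal RNA.

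**Figure D1:**
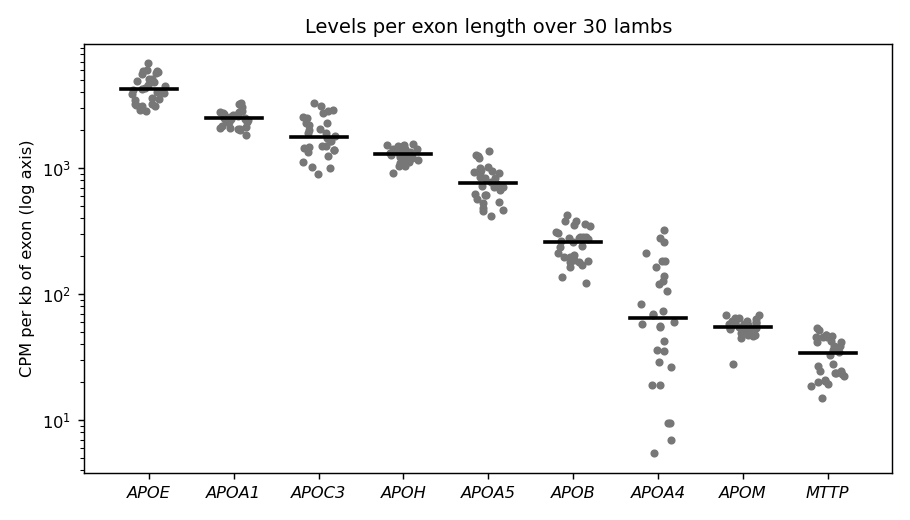
CPM per kilobase of exon (log axis) of the 9 genes with counts, 1 point per lamb (n = 30) and a bar at the median. APOE stands highest at a median of 4229 and MTTP lowest at 33.9, and APOA4 spreads from 5.45 to 321.

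The first comparison asked whether biosolids exposure changed these genes in male lambs. Exposure moved none of them past the test. All 9 genes with counts had a lower mean in biosolids males than in control males, with a median log2 fold change of -0.15 beside 0.01 over all genes tested. APOE and APOM had the smallest p, and the ranges of the 2 groups overlapped for every gene. Called at an adjusted p under 0.05 by edgeR's quasi-likelihood test were 0 of the 9, where 0% of 17840 genes were called. At an unadjusted p under 0.05 there were also 0 of the 9, against 5.44% of all genes, and neither DESeq2 nor limma voom called any of the 9.

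APOE ranged from 4707 to 8501 CPM in biosolids males (median 6456) and from 6079 to 10297 CPM in control males (median 8645). None of the 7 biosolids males exceeded the control median, 3 of them lay below the control range, and the ranges overlapped between 6079 and 8501 CPM. This gave a log2 fold change of -0.36 ± 0.19 (SE) and, in edgeR's quasi-likelihood test, an adjusted p = 0.816. APOM, the HDL-bound carrier of sphingosine 1-phosphate, ranged from 54.7 to 125 CPM in biosolids males (median 95.7) and from 103 to 120 CPM in control males (median 116). Of the 7 biosolids males, 5 lay below the control range and 2 above it. Its log2 fold change of -0.22 ± 0.13 (SE) became -0.13 ± 0.11 without biosolids male 8778, the lowest lamb, whose value rests on 154 counts.

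The particle scaffold and its loading factor showed wide spread in the males. APOB averaged 3662 ± 1036 CPM in biosolids males and 4349 ± 950 CPM in control males (n = 7 each, SD). The fitted log2 fold change of APOB was -0.25 ± 0.24 (SE). MTTP averaged 238 ± 95.3 CPM in biosolids males and 261 ± 46.2 CPM in control males (SD, n = 7 each). MTTP in biosolids males reached both below and above the controls, with 3 of 7 lambs under the control range and 2 over it. Its log2 fold change of -0.13 became -0.06 without lamb 8778.

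APOC3 and APOA5 act in opposite directions on triglyceride-rich particles, the first slowing and the second speeding their hydrolysis by lipoprotein lipase. APOC3 averaged 3246 ± 1080 CPM in biosolids males and 3597 ± 824 CPM in control males, and APOA5 1917 ± 653 CPM in biosolids males and 2236 ± 698 CPM in control males (SD, n = 7 each). Their log2 fold changes were -0.15 ± 0.26 and -0.22 ± 0.24 (SE), within the spread between lambs. That of APOC3 was -0.05 without lamb 8778, which held the lowest APOC3 of all lambs at 1905 CPM.

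Beside APOM, the estimates with the smallest errors in the males were those of APOA1, the structural protein of HDL, and the phospholipid-binding APOH. APOA1 averaged 2262 ± 215 CPM in biosolids males and 2439 ± 342 CPM in control males (SD, n = 7 each). The 95% interval of its log2 fold change ran from -0.38 to 0.17. APOH, beta-2-glycoprotein I, averaged 3656 ± 603 CPM in biosolids males and 3750 ± 449 CPM in control males, with an interval from -0.32 to 0.25. APOA4, at 14.2 to 274 CPM in biosolids males and 8.18 to 274 CPM in control males, had an interval from -1.61 to 1.54, the widest of the 9. Differences smaller than that were not detectable at this spread between lambs.

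Hepatocyte markers moved in the same direction in the males. All 8 tested markers had a lower mean in biosolids males. Their median log2 fold change was -0.16 with none called, and their summed level ranged from 66710 to 114200 CPM in biosolids males and from 91000 to 121100 CPM in control males. Their part in the differences of the 9 genes was not tested. In bulk tissue, fewer hepatocytes and less RNA of a gene per hepatocyte cannot be told apart.

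**Figure D2:**
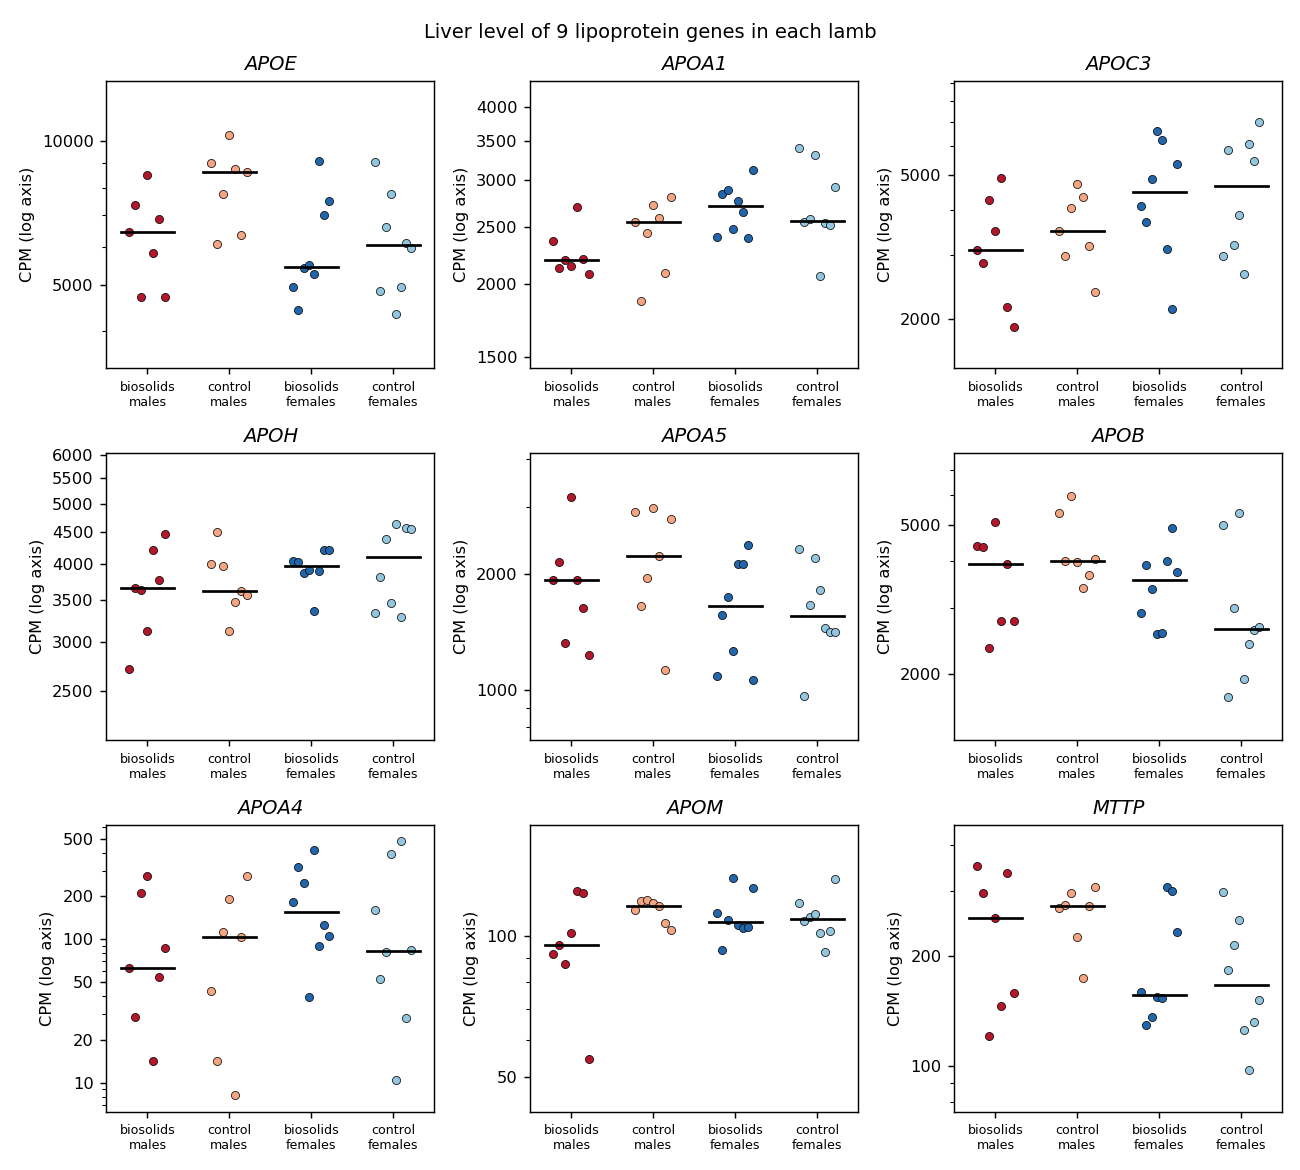
CPM (log axis) of the 9 genes in each lamb, by group (7 biosolids males, 7 control males, 8 biosolids females, 8 control females), with a bar at each group's median. The groups overlap for every gene, and biosolids male 8778 stands alone at the bottom of the APOM panel at 54.7 CPM.

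In female lambs the same question gave differences close to 0. Of the 9 genes, 5 had a higher and 4 a lower mean in biosolids females, the median log2 fold change was 0.01 beside -0.02 over all genes, and 0 were called by edgeR's quasi-likelihood test, where 0% of genes were called. At an unadjusted p under 0.05 there were 0 of the 9, against 3.65% of all genes, and DESeq2 and limma voom called 0. APOA1 averaged 2695 ± 258 CPM in biosolids females and 2737 ± 449 CPM in control females, and its log2 fold change had a 95% interval from -0.28 to 0.23. For APOM the means were 111 ± 13.0 CPM in biosolids females and 110 ± 12.0 CPM in control females, with an interval from -0.23 to 0.27 (SD, n = 8 each). Cholangiocyte markers had a higher mean in biosolids females for 5 of 5, with a median of 1.48 and none called. Lamb 8649 was the highest of all lambs for each of these 5 markers, with a sum of 414.5 CPM, and the median sums were 13.4 CPM in biosolids females and 12.2 CPM in control females. Stellate cell markers had a higher mean in biosolids females for 6 of 6, with a median of 0.69 and none called. Of these, COL1A1, COL1A2 and FBLN1 were highest of all lambs in 8649, and COL3A1, DCN and LUM in other lambs. The median sums of this list were 271 CPM in biosolids females and 198 CPM in control females. The part of both marker lists in the values of the 9 genes was not tested.

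APOE ranged from 4427 to 9099 CPM in biosolids females (median 5463) and from 4349 to 9048 CPM in control females (median 6051), nearly the same span. Its log2 fold change was -0.02 ± 0.18 (SE). APOH ranged from 3363 to 4215 CPM in biosolids females (median 3967) and from 3288 to 4648 CPM in control females (median 4103). The biosolids females were the tighter group for APOH, with 1 lamb, 8714, set below the other 7. APOC3 averaged 4517 ± 1542 CPM in biosolids females and 4646 ± 1648 CPM in control females, and APOA5 averaged 1671 ± 510 CPM in biosolids females and 1659 ± 450 CPM in control females (n = 8 each, SD).

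APOB averaged 3491 ± 803 CPM in biosolids females and 3086 ± 1352 CPM in control females (n = 8 each, SD). Its log2 fold change was 0.18 ± 0.22 (SE; adjusted p = 1, edgeR's quasi-likelihood test), and MTTP followed at 0.11 ± 0.24. MTTP stood at 197 ± 73.4 CPM in biosolids females and 182 ± 68.8 CPM in control females. APOA4 ranged from 39.6 to 417 CPM in biosolids females (median 153) and from 10.5 to 481 CPM in control females (median 82.8). The control females thus held both a lower lowest and a higher highest APOA4 value. The log2 fold change of APOA4 was 0.24 ± 0.72 (SE) by edgeR and 0.91 by limma voom, which averages log values, and neither passed.

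Averaged over both sexes, 1 of the 9 genes had a higher and 8 a lower mean in biosolids lambs, with a median log2 fold change of -0.07 while the median over all genes was within 0.01 of 0. None was called by edgeR's quasi-likelihood test, where 0% of genes were called, none had an unadjusted p under 0.05 (4.3% of all genes), and DESeq2 and limma voom called none. APOE, at -0.19 ± 0.13 (SE), had the smallest p of the 9 (adjusted p = 0.943, edgeR's quasi-likelihood test). The narrowest intervals were those of APOM, from -0.28 to 0.08, APOA1, from -0.25 to 0.12, and APOH, from -0.22 to 0.16.

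The interaction set the exposure difference of males against that of females. All 9 terms were negative, from -0.43 to -0.01 with a median of -0.24 beside 0.03 over all genes. Each used the same lambs as the comparisons above, so these signs follow from those values. APOB had the largest term, -0.43 ± 0.32 (SE), then APOE with -0.34 ± 0.27. None of the 9 passed by edgeR's quasi-likelihood test (0% of genes called) or at an unadjusted p under 0.05 (3.63% of genes), and none by DESeq2 or limma voom.

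The next comparison set male against female lambs among the controls. APOB, MTTP, APOE and APOA5 had higher means in control males than in control females, and APOC3, APOA4, APOA1 and APOH lower ones, but 0 of the 9 were called by edgeR's quasi-likelihood test, where 0.0841% of 17840 genes were called. At an unadjusted p under 0.05 there were 3 of the 9 (APOB, MTTP and APOE), in a comparison where 18.9% of all genes fell under that limit. DESeq2 and limma voom called 0 of the 9. Control male 8408, whose LOC101112291 level was near that of the females, is counted here as a male by its label. Without it, the log2 fold change was 0.60 ± 0.26 (SE) for MTTP, 0.55 ± 0.24 for APOB and 0.37 ± 0.20 for APOE, and the unadjusted p of APOE was 0.0714 by edgeR's quasi-likelihood test. Over the 30 fits that each left out 1 lamb, MTTP ran from 0.42 (without 8353) to 0.66 (without 8245). APOB ran from 0.40 (without 8263) to 0.66 (without 8313). APOE ran from 0.31 (without 8322) to 0.49 (without 8245), and APOA5 from 0.33 (without 8263) to 0.55 (without 8425).

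MTTP ranged from 175 to 309 CPM in control males (median 273) and from 97.8 to 299 CPM in control females (median 167). All 7 control males lay above the female median, but only 1 above the female range. The log2 fold change was 0.52 ± 0.25 (SE; adjusted p = 0.258, edgeR's quasi-likelihood test). APOB ranged from 3386 to 5971 CPM in control males (median 4004) and from 1736 to 5369 CPM in control females (median 2641), a log2 fold change of 0.50 ± 0.23 (SE). Again all 7 males exceeded the female median, and 2 exceeded the female range.

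APOE had a mean of 8132 ± 1506 CPM in control males (n = 7) and 6209 ± 1587 CPM in control females (n = 8), which is a log2 fold change of 0.39 ± 0.19 (SE). APOA5 had a mean of 2236 ± 698 CPM in control males and 1659 ± 450 CPM in control females, which is a log2 fold change of 0.43 ± 0.23. On the other side APOC3 stood at -0.37 ± 0.25, APOA1 at -0.17 ± 0.13 and APOH at -0.10 ± 0.13. Hepatocyte markers had a higher mean in control males for 7 of 8, with a median of 0.35 and none called, and stellate cell markers for 6 of 6, with a median of 0.87. An exon-length index of the libraries, described with the correlations, had a median of 0.0908 in control males and -0.156 in control females. The part of the markers and of the index in these differences was not tested.

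In biosolids lambs, 4 of the 9 genes had a higher and 5 a lower mean in males. The log2 fold change of males over females was 0.07 ± 0.23 (SE) for APOB, 0.05 ± 0.19 for APOE and 0.27 ± 0.25 for MTTP. APOC3, at -0.48 ± 0.25, and APOA1, at -0.25 ± 0.13, had the smallest p. Among the 9, 0 were called by edgeR's quasi-likelihood test (0.0953% of genes called), 0 had an unadjusted p under 0.05 (4.85% of genes), and DESeq2 and limma voom called 0. The difference between the 2 sex comparisons is the interaction given above, which did not pass.

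**Figure D3:**
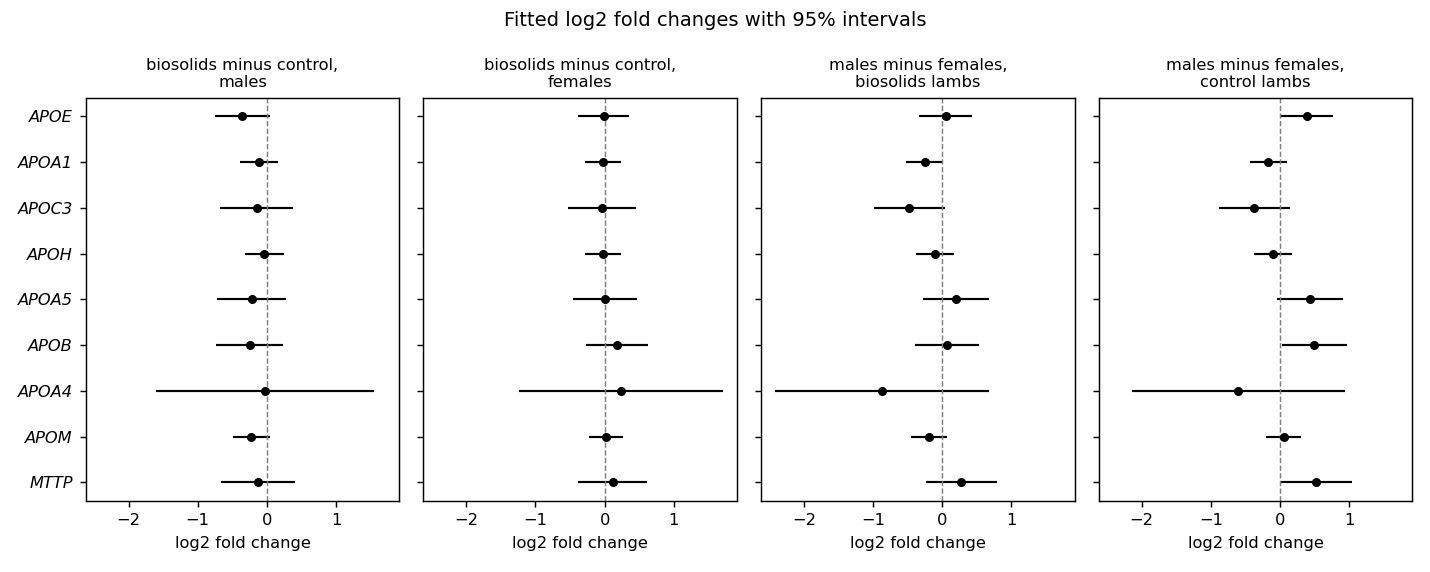
Fitted log2 fold changes of the 9 genes (points) with 95% intervals (lines) for biosolids minus control lambs in males and in females, and for males minus females in biosolids and in control lambs. Intervals of APOE, APOB and MTTP lie just above 0 for sex in controls before adjustment over 17840 genes, and APOA4 has the widest interval in every panel.

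How far lambs of 1 group lay apart differed from gene to gene. APOA4, which the intestine makes in quantity and the liver in varying amounts, spread most. It ran from 8.18 CPM in control male 8408 to 481 CPM in control female 8353, a 58.8-fold range. Its within-group SD was 1.61 log2 units, above that of 99.4% of the 8419 genes with a mean of at least 10 CPM.

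High and low APOA4 livers occurred in each group. The highest lamb was 19.3 times the lowest in biosolids males, 33.5 times in control males, 10.5 times in biosolids females and 45.8 times in control females. At the other end stood APOA1, with a within-group SD of 0.19 log2 units, and APOH, also 0.19, above 8.52% and 9.64% of those genes. APOM was at 0.23, APOE at 0.33, APOB at 0.43, APOA5 at 0.46, APOC3 at 0.49 and MTTP at 0.51.

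Across the 30 lambs, 5 of the 6 pairs among APOB, MTTP, APOE and APOA5 were positively correlated, and APOC3 ran against MTTP. The pair of that block that did not pass was APOA5 with MTTP (r = 0.437, rho = 0.428, permutation p = 0.0163, adjusted p = 0.0709). Of 36 pairs of the 9 genes, 6 passed (permutation test of Pearson's r, 100000 resamples, Benjamini-Hochberg over the 36 pairs). The share of pairs of other genes that would pass was not computed. The 6 are therefore not shown to be particular to these genes. APOB and MTTP had r = 0.764 and Spearman's rho = 0.770 (permutation p = 1e-05 for each, the smallest that the resamples can give, adjusted p = 0.00018). Without the 2 lambs farthest from the median of APOB, r was 0.805.

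APOB and APOE had r = 0.735 (rho = 0.756, permutation p = 1e-05, adjusted p = 0.00018), and 0.686 without the 2 farthest lambs. APOE and MTTP had r = 0.722 (rho = 0.703, permutation p = 2e-05, adjusted p = 0.00024) and 0.735 without them. APOA5 and APOE had r = 0.690 (rho = 0.692, permutation p = 5e-05, adjusted p = 0.00045) and 0.654 without them. These 3 pairs join genes on different chromosomes, as do all 6 that passed.

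APOA5 and APOB had r = 0.622 (rho = 0.669, permutation p = 0.00038, adjusted p = 0.00274) and 0.522 without the 2 farthest lambs. The single negative pair was APOC3 and MTTP, with r = -0.560 (rho = -0.603, permutation p = 0.00142, adjusted p = 0.00852) and -0.652 without the 2 farthest. The other 30 pairs lay between -0.424 and 0.437. Of the 9 genes, 4 (APOA5, APOA4, APOC3 and APOA1) sit within 61.8 kb of chromosome 15 (27176642 to 27238446), and of the 6 pairs among them 0 passed, with r from -0.303 to 0.415.

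**Figure D4:**
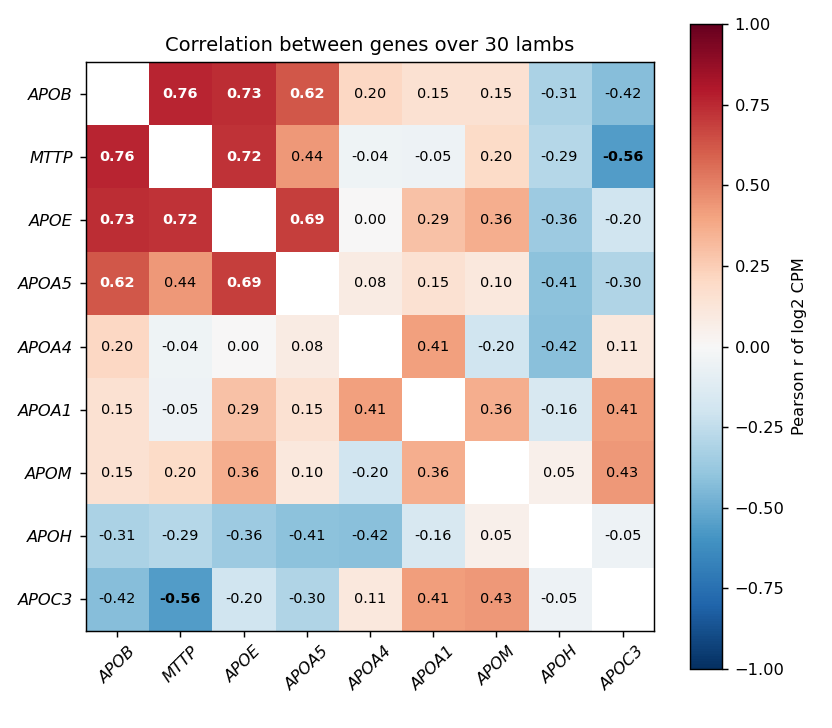
Pearson's r of log2 CPM between the 9 genes over 30 lambs, coloured from blue (negative) to red (positive), with the 6 pairs that passed in bold. APOB, MTTP, APOE and APOA5 form a block of positive values, and the bold value for APOC3 with MTTP is negative.

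A property of the whole library moved with this block. For each lamb an exon-length index was taken as the median deviation in log2 CPM of the 4460 tested genes with the longest exons (at least 7395 bases) minus that of the 4461 with the shortest (at most 2213 bases). It ranged from -0.257 to 0.354 in biosolids males, from -0.218 to 0.211 in control males, from -0.188 to 0.133 in biosolids females and from -0.233 to 0.285 in control females. The medians were 0.125 in biosolids males, 0.0908 in control males, -0.104 in biosolids females and -0.156 in control females. A high index means that transcripts of long exon content were counted relatively more in that library. Among the members, APOB (14132 exon bases) is as long as the longest genes. APOC3 (2131), APOM (1950), APOE (1517), APOA4 (1500) and APOA1 (1024) are as short as the shortest. MTTP (6488), APOH (2979) and APOA5 (2322) lie between the limits. APOE and APOC3, both short, had r = 0.595 and -0.474 with the index. The part of a member's own exon length in its correlation with the index was not tested.

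MTTP followed the index with r = 0.830 (rho = 0.762, permutation p = 1e-05, adjusted p = 4.5e-05 over the 9 genes), and r was 0.833 without the 2 lambs of most extreme index. APOB had r = 0.787 (rho = 0.786, permutation p = 1e-05, adjusted p = 4.5e-05), and 0.785 without them. APOE had r = 0.595 (rho = 0.579, permutation p = 0.00057, adjusted p = 0.00171), and 0.646 without them. APOA5 had r = 0.459 (rho = 0.426, permutation p = 0.0112, adjusted p = 0.0168), and 0.464 without them. On the negative side, APOH had r = -0.499 (rho = -0.439, permutation p = 0.00495, adjusted p = 0.0111), and -0.348 without them. APOC3 had r = -0.474 (rho = -0.496, permutation p = 0.00846, adjusted p = 0.0152), and -0.506 without them. As for how many genes follow the index, 4.01% of the 8419 genes at 10 CPM or more had an r with the index as far from 0 as MTTP, 7.61% as APOB and 31.7% as APOE. The share was 44.8% for APOH, 48% for APOC3 and 50.1% for APOA5. These 3 thus followed the index about as closely as the middle gene of the table.

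No pair passed within parts of the index's range, but sets of 17 and 13 lambs also make passing harder. Such sets cannot tell what part the index plays in the correlations. Among the 17 lambs with an index below 0, APOB and MTTP had r = 0.443 (rho = 0.466, permutation p = 0.0766, adjusted p = 0.345). Among the 13 with an index of at least 0 they had r = -0.171 (rho = -0.264, permutation p = 0.576, adjusted p = 0.7). APOE and MTTP had 0.553 in the first set and -0.536 in the second. In the second set, APOA5 and APOE had r = 0.746 (permutation p = 0.00235, adjusted p = 0.0846), against 0.255 in the first. APOC3 and MTTP had -0.696 (permutation p = 0.00797, adjusted p = 0.143), against -0.203. Both lay farther from 0 in the second set than over all 30 lambs. APOB with APOE and APOA5 with APOB had 0.143 and 0.388 in the second set. None of the 36 pairs passed in either set, and the sets were not tested against each other. After a straight-line fit on the index over all 30 lambs, 3 pairs passed: APOA5 with APOE at r = 0.584, APOB with APOE at 0.537 and APOE with MTTP at 0.509. The correlation of APOB with MTTP was then 0.323 and that of APOC3 with MTTP -0.340, with adjusted permutation p of 0.172 and 0.16. The index was added after seeing the data, and its part in the correlations was not tested.

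**Figure D5:**
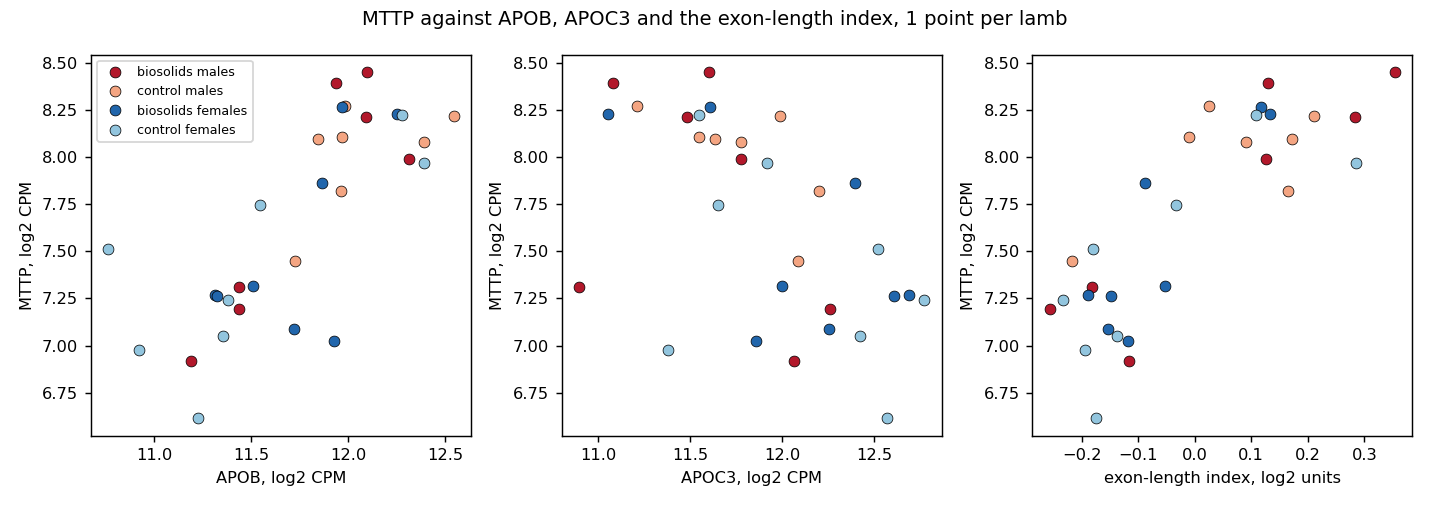
MTTP in log2 CPM against APOB, against APOC3 (both log2 CPM) and against the exon-length index (log2 units), 1 point per lamb coloured by group. MTTP climbs with APOB (r = 0.764) and with the index (r = 0.830) and drops with APOC3 (r = -0.560). The lowest MTTP of a control male is 175 CPM, above the lowest of the other groups.

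For each gene, the 2 genes most like it were sought by Pearson's r of log2 CPM over 29 lambs, biosolids male 8778 left out, among 7767 named genes with a mean of at least 10 CPM. These are descriptions, since the best of many were taken. MTTP was most like TRIP12, a ubiquitin ligase (r = 0.956), and CANX, the chaperone calnexin (0.955). APOB was most like PRPF8, a core spliceosome protein (0.931), and SPTBN1, a spectrin (0.929). APOE was most like TFR2, a transferrin receptor of hepatocytes (0.940), and CPN2, a plasma carboxypeptidase subunit (0.928).

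The likeness was weaker for the other members. APOA5 was closest to GTF3C5 (0.803) and NUDT19 (0.801). APOC3 was closest to MRPL57, a mitochondrial ribosomal protein (0.755), and GUK1, guanylate kinase (0.740). APOA4 was closest to MFSD2A, a carrier of lysophosphatidylcholine (0.758), and MIGA2 (0.733). MFSD2A itself ranged from 1.90 to 67.1 CPM, a wide range as for APOA4. APOH was closest to DHRS7 (0.697) and FGL1, a liver-secreted protein (0.697), APOM to EIF3I (0.663), and APOA1 to GALK1, galactokinase (0.662), and RANBP1 (0.624). With lamb 8778 included, the r of APOM with EIF3I was 0.311.

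Other genes of lipoprotein handling were read from 5 lists: other apolipoproteins, partners in assembly and secretion, plasma remodelling, receptors and transporters, and transcriptional regulators. APOC1, APOL6, CLU, SAA4 and CETP were not analysed here. In all, 58 genes were tested, and 0 were called in any of the 6 comparisons by edgeR's quasi-likelihood test. In males, 3 of 11 remodelling genes and 2 of 15 assembly partners had an unadjusted p under 0.05, against 5.44% of all genes. So had 0 of 13 receptors and transporters, 0 of 16 regulators and 0 of 3 other apolipoproteins. The lists were chosen with earlier results of these data known, so these counts are descriptions only. ITIH4, a plasma protein of the acute phase, averaged 2572 CPM in biosolids males and 4547 CPM in control males, a log2 fold change of -0.82 ± 0.30 (SE; adjusted p = 0.816, edgeR's quasi-likelihood test).

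Set beside the females, ITIH4 had a mean of 4547 CPM in control males and 2511 CPM in control females, at a log2 fold change of 0.86 ± 0.29 (SE). The interaction term of ANGPTL4, an inhibitor of lipoprotein lipase, was -0.90 ± 0.33, and it did not pass. These comparisons share the control males.

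Among assembly partners, TM6SF2, which aids the lipidation of VLDL, averaged 49.2 CPM in biosolids males and 66.6 CPM in control males, a log2 fold change of -0.43 ± 0.21 (SE). TMEM41B, a lipid scramblase of the endoplasmic reticulum, averaged 16.5 CPM in biosolids males and 11.3 CPM in control males, at 0.52 ± 0.25. The other 13 partners included no gene under an unadjusted p of 0.05 in males. Of the list in males, 8 of 15 partners had a lower mean.

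In females, TFG, a factor of secretory vesicle export, had a log2 fold change of 0.27 ± 0.14 (SE), PON1, an HDL-bound esterase, of -0.25 ± 0.17, and LIPG, endothelial lipase, of 0.92 ± 0.75. SREBF2, the activator of sterol genes, was at -0.37 ± 0.25. RORA, a nuclear receptor, was at 0.21 ± 0.14 in females and 0.27 ± 0.15 in males, and at 0.24 ± 0.10 over both sexes, without passing.

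For sex in controls, receptors and transporters had a higher mean in control males for 12 of 13 genes, with a median log2 fold change of 0.30 beside -0.04 over all genes, and 5 of 13 under an unadjusted p of 0.05 against 18.9% of all genes. ABCA1, the exporter of cholesterol to APOA1, had a mean of 213 CPM in control males and 146 CPM in control females, at 0.54 ± 0.21 (SE). LRP1, a receptor of APOE-bearing remnants, had a mean of 2566 CPM in control males and 1704 CPM in control females, at 0.59 ± 0.26. FOXO1, an insulin-restrained activator of MTTP and APOC3 transcription in mouse and human cells, was at 0.49 ± 0.17. In biosolids lambs the same receptor list was higher in males for 12 of 13, with a median of 0.23. Over all genes, 8923 of 17840 were higher, with a median of 0.00014. Of the list, 1 of 13 was under an unadjusted p of 0.05, against 4.85% of all genes. The exon-length index had higher medians in males than in females in both comparisons, and LRP1 (14278 exon bases) and ABCA1 (11188) are long. Its part in these differences was not tested.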

How the data were processed

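RNA from 30 mg of frozen liver per lamb was made into TruSeq libraries for a NovaSeq run, per the labels' protocols. The submitters' processing notes name featureCounts 1.5.0-p3 as well as STAR, Trimmomatic, MultiQC and FastQC; settings, strand and genome build are not given in the sources used here. The authors deposited raw read counts per gene with exon coordinates; 7 genes broken over 25 lines were joined. Of 31304 rows, 28862 matched a RefSeq symbol, and 28855 of 28855 compared genes had the start and end of ARS-UI_Ramb_v3.0. Each lamb is 1 replicate; no litter or batch is labelled, so neither could be fitted.

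Genes were tested with edgeR 4.0.16: filterByExpr (17840 genes kept), TMM scaling, the robust quasi-likelihood test on 4 group means (26 residual degrees of freedom) and Benjamini-Hochberg adjustment at 0.05. CPM uses TMM-scaled library sizes, and log2 CPM a prior count of 2. DESeq2 1.42.0 and limma 3.58.1 (voom with sample quality weights) were alternatives. The fit and the correlations were tested on simulated data. All members were named in every comparison, and of each other list the 2 genes with the smallest p, or the genes called. The members and lists were chosen with earlier results of these data known. The exon-length index was added after seeing the data. Some genes that this rule selects are not reported here.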

Additional observations from a re-analysis of the deposited data

Results flagged for a closer look

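APOH in biosolids females had 1 lamb set apart. Lamb 8714 held 3363 CPM, below the next lamb at 3865 CPM and the group's median of 3967 CPM. In log2 CPM, its gap to the next lamb was 0.617 of the group's range, over Dixon's critical value of 0.526 for 8 lambs. It was the single such case among 36 sets of 1 gene in 1 group, and chance marks about 1 set in 20.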

How the results depend on the processing

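None of the 9 genes was called in any comparison under any alternative, including RLE scaling, other filters, DESeq2, limma voom, an adjusted p under 0.1 and each lamb left out (range 0 to 0 members called in all 6 comparisons). The limit of 0.1 was applied to the main edgeR fit only. The smallest adjusted p of a member over the settings was 0.0761, for APOB in sex in controls, and that of MTTP there was 0.0989. Both are under 0.1. In the main fit they were 0.246 and 0.258 by edgeR's quasi-likelihood test. Genes called over the whole table for sex in controls numbered 15 by edgeR, 54 by DESeq2 and 64 by limma voom, and 10 to 23 with 1 lamb left out. For sex in biosolids lambs they numbered 17, and 7 to 22 over the alternatives. DESeq2 called 4 genes for exposure in males, 4 over both sexes and 1 for the interaction, where edgeR called 0.

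Of 432 fold changes of members under 8 alternatives, of which 3 left out 1 lamb each (8263, 8778 and 8408), 417 kept their direction and 15 turned in sign, each at most 0.142 in size. With no filter, MTTP over both sexes was 0.0018. With at least 1 CPM in 15 libraries, MTTP over both sexes was 0.0048, APOA4 in males 0.0019 and the APOH interaction 0.0091. By limma voom, females had 0.0049 for APOA1, -0.069 for APOA5, 0.14 for APOC3 and -0.020 for MTTP, and the APOH interaction was 0.037. Signs turned without control female 8263 for APOA5 and APOC3 in females and the APOH interaction, without biosolids male 8778 for APOA4 in males and MTTP over both sexes, and without control male 8408 for APOA4 over both sexes. The cause was not tested. Over all 30 fits that each left out 1 lamb, more fold changes near 0 turned and by more: APOA4 in males turned in 7 of 30 fits (-0.49 to 0.41, the ends without 8762 and 8428), APOA4 over both sexes in 4 (-0.13 to 0.36, without 8762 and 8353), APOA4 in females in 1 (-0.026 to 0.73, without 8714 and 8353), MTTP over both sexes in 13 (-0.070 to 0.061), the APOH interaction in 13 (-0.074 to 0.048) and APOB over both sexes in 4 (-0.084 to 0.045). Over the fits without 8263, 8778 or 8408 alone, females spanned -0.070 to 0.015 for APOA5 and -0.041 to 0.019 for APOC3, APOA4 in males -0.24 to 0.0084, APOA4 over both sexes -0.00078 to 0.12, MTTP over both sexes -0.048 to 0.030 and the APOH interaction -0.074 to 0.0092.

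The 6 correlated pairs became 7 without lamb 8778 and 8 on deviations from group means, against 3 after the exon-length index and 0 and 0 among lambs with an index below 0 and of at least 0, sets of 17 and 13 lambs. In the second set, r was -0.171 for APOB with MTTP and -0.536 for APOE with MTTP. It was 0.746 there for APOA5 with APOE and -0.696 for APOC3 with MTTP. Sets this small make passing harder. No paired analysis was possible because the groups share no replicate numbers. The spread of APOA4, and the 2.34 M counts of lamb 8778, limit what could be detected.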
